A study of Mus musculus with 15 samples.

Results

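The Bcl2 family of apoptosis regulators was followed through 10 genes in mouse macrophages exposed to mineral particles. The genes were taken by symbol from the 10653 genes of the table, as the lines named Bcl2a1a, Bcl2a1b, Bcl2a1d, Mcl1, Bcl2l1, Bcl2, Bcl2l2, Bax, Bcl2l11 and Bcl2l13, and all 10 were found and passed the filter on low values. The cells were MPI cells, non-transformed macrophages from the fetal liver of female C57BL6/J mice that renew themselves when given GM-CSF, a growth factor of myeloid cells, and are used to model macrophages of the alveoli. They were exposed for 24 h to riebeckite asbestos at 9 µg per cm2, riebeckite cleavage fragments at 40 µg per cm2, tremolite asbestos at 5 µg per cm2 or tremolite cleavage fragments at 60 µg per cm2, or were left untreated. The doses were equivalent in particle surface area and so unequal in mass, and all groups shared the same medium. Each of the 5 groups had 3 libraries, 15 in all. The labels do not say whether these came from separate cultures, so the p-values measure only the spread between these libraries, which may be technical. Levels are in FPKM, fragments scaled for transcript length and for the fragments mapped in the library, and are given as mean ± SD with n = 3.

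Bcl2 family proteins decide at the mitochondrial outer membrane whether a cell enters apoptosis. The anti-apoptotic members, among them Bcl2, Bcl-xL (from Bcl2l1), Bcl-w (from Bcl2l2), Mcl1 and A1 (from the Bcl2a1 genes), hold back the pore-forming effectors Bax and Bak. The BH3-only members, such as Bim (from Bcl2l11), bind and neutralise the anti-apoptotic members. Myeloid cells are known for their reliance on Mcl1, a protein with a short life, and on A1, whose gene is a known target of NF-kB and is induced by GM-CSF. Bcl2l13 is a mitochondrial outer membrane protein known as a receptor for mitophagy in mammalian cells.

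All 13 listed macrophage markers were in the table. Their summed level ran from 7521 to 7750 FPKM with riebeckite asbestos, 7776 to 8332 FPKM with riebeckite fragments, 6734 to 7507 FPKM with tremolite asbestos, 6610 to 7047 FPKM with tremolite fragments and 6222 to 6735 FPKM in untreated cells. Lyz2 made up most of that sum, at 4066 FPKM in untreated cells, and single markers moved in both directions. Fcgr1 averaged 11.4, 12.2, 19.7 and 15.5 FPKM with the particles in that order and 25.7 FPKM in untreated cells. Siglecf averaged 49.6, 55.4, 27.4 and 38.4 FPKM with the particles and 10.7 FPKM in untreated cells. Of 10 neutrophil markers 2, S100a8 and Cxcr2, were in the table. Listed markers of mast cells, lymphocytes, fibroblasts, epithelium, endothelium, hepatocytes and erythroid cells were not among its genes and were not analysed here. Summed FPKM per library lay between 257329 and 273570. The rank correlation (Spearman) of levels between libraries, taken over genes, ran from 0.988 to 0.992 inside a group and from 0.963 to 0.990 for libraries of different groups, and no 2 libraries held identical values. Read depth is unknown, so no interval for counting error is given.

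The 3 Bcl2a1 genes lie on mouse chromosome 9 of GRCm38, Bcl2a1a at 88956900 to 88962419 on the plus strand, Bcl2a1b at 89199209 to 89207827 on the plus strand and Bcl2a1d at 88723285 to 88731914 on the minus strand. Each has 1 annotated transcript with a coding sequence of 516 bases without the stop codon, and the coding sequences differ at 12 positions. The identity was 97.87% between Bcl2a1a and Bcl2a1b, 98.64% between Bcl2a1a and Bcl2a1d, and 98.84% between Bcl2a1b and Bcl2a1d, and the longest identical stretch in all of them was 217 bases. The first 180 coding bases, which hold 7 of the 12 positions, are shown because, within the coding sequence, reads tell the genes apart at such positions alone. Capitals mark the positions that differ between any of the genes, in the reference at chr9:88957051-88957230 (plus strand), chr9:89199360-89199539 (plus strand) and chr9:88731540-88731719 (minus strand).
Bcl2a1a: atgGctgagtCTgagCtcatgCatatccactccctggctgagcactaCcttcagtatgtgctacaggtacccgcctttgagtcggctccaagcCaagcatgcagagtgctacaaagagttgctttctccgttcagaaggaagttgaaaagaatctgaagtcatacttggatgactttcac
Bcl2a1b: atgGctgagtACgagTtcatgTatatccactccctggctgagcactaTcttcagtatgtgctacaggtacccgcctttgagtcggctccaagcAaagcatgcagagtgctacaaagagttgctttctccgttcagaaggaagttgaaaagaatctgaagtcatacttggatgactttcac
Bcl2a1d: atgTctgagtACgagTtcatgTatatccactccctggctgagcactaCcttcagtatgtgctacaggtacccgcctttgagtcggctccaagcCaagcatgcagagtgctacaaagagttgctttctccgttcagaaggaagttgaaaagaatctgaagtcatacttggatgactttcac
Reads from stretches without such a position match all 3 genes, so the split between them is uncertain and their sum is the firmer quantity.

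The promoters of the Bcl2a1 genes are as alike as their coding sequences. They are shown as a description only, and any part of them in the levels of the genes was not tested. Over the aligned bases the identity was 99.22% between Bcl2a1a and Bcl2a1b, 97.96% between Bcl2a1a and Bcl2a1d, and 98.8% between Bcl2a1b and Bcl2a1d. The sequences are those of RefSeq on GRCm38.p6, from 250 bases before to 50 bases after the start site, at chr9:88956670-88956969 (plus strand), chr9:89199023-89199322 (plus strand) and chr9:88731801-88732100 (minus strand). Capitals mark a match to TGANTCA, an AP-1-type pattern with any base at N, followed by one to the PU.1-type ETS motif GAGGAAGT, without overlap. The AP-1-type match reads TGAATCA in all 3 promoters.
Bcl2a1a: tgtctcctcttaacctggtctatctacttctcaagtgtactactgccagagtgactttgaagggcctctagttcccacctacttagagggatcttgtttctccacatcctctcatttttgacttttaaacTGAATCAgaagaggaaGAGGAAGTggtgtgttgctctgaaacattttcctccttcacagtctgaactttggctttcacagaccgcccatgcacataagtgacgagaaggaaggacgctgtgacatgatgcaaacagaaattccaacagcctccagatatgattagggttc
Bcl2a1b: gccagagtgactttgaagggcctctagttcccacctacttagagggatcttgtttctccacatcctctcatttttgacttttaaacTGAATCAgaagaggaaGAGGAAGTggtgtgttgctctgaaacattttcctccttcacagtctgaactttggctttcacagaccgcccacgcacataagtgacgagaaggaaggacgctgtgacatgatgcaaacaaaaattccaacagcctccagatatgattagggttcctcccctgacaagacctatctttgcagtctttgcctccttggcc
Bcl2a1d: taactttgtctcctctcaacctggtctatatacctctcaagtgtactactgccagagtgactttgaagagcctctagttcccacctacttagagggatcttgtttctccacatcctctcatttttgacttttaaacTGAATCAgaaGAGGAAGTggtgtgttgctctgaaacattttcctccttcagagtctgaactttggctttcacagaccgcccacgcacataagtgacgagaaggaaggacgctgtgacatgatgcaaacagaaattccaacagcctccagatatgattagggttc
All 3 promoters held both motifs, and none held a match to the NF-kB consensus, found in 8.46% of all promoters. Searched on both strands, TGANTCA was found in 7.81% and GAGGAAGT in 3.2% of 32851 RefSeq promoters of the same length. The motifs were chosen with the sequences in view, and a match is a description of letters, not a bound site.

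Of the 10 members, 8 passed the test in riebeckite asbestos against untreated cells, 6 higher and 2 lower (limma on log2(FPKM + 1), Benjamini-Hochberg adjusted p under 0.05 over 10616 genes). In that comparison 45.3% of all genes passed, 21% higher and 24.3% lower. With riebeckite fragments 7 members passed, 5 higher and 2 lower, beside 38.4% of all genes, 15.3% higher and 23.1% lower. With tremolite asbestos 6 members passed, 5 higher and 1 lower, beside 23.9% of all genes, 10% higher and 13.9% lower. With tremolite fragments 4 members passed, all higher, beside 27.5% of all genes, 12.5% higher and 15% lower. The libraries of a particle and the untreated libraries did not overlap for 8, 7, 5 and 5 members in that order, beside 55.3%, 49.1%, 39.9% and 45.1% of all genes. The median log2 difference of the members was 0.33, 0.19, 0.18 and 0.10, beside -0.02, -0.04, -0.03 and -0.02 over all genes. Scaling moved the balance of calls over all genes. For riebeckite asbestos 2232 genes were higher and 2575 lower as reported, 2417 and 2392 with median-ratio scaling, and 1772 and 3138 after rescaling to nuclear genes. For riebeckite fragments the counts were 1626 and 2447 as reported, 2011 and 1886 with median-ratio scaling, and 1297 and 3225 with nuclear rescaling. For tremolite asbestos they were 1062 and 1478 as reported and 1339 and 1092 with median-ratio scaling, and for tremolite fragments 1328 and 1592 as reported and 1544 and 1328 with median-ratio scaling. The 4 comparisons share the untreated libraries. Bcl2a1a, Bcl2a1b, Bcl2a1d and Bcl2l13 were higher with all 4 particles. Mcl1 was lower with both forms of riebeckite, Bcl2l11 was lower with 3 particles, Bcl2 was higher with 3, Bax with 1, and Bcl2l1 and Bcl2l2 passed with none.

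**Figure D1:**
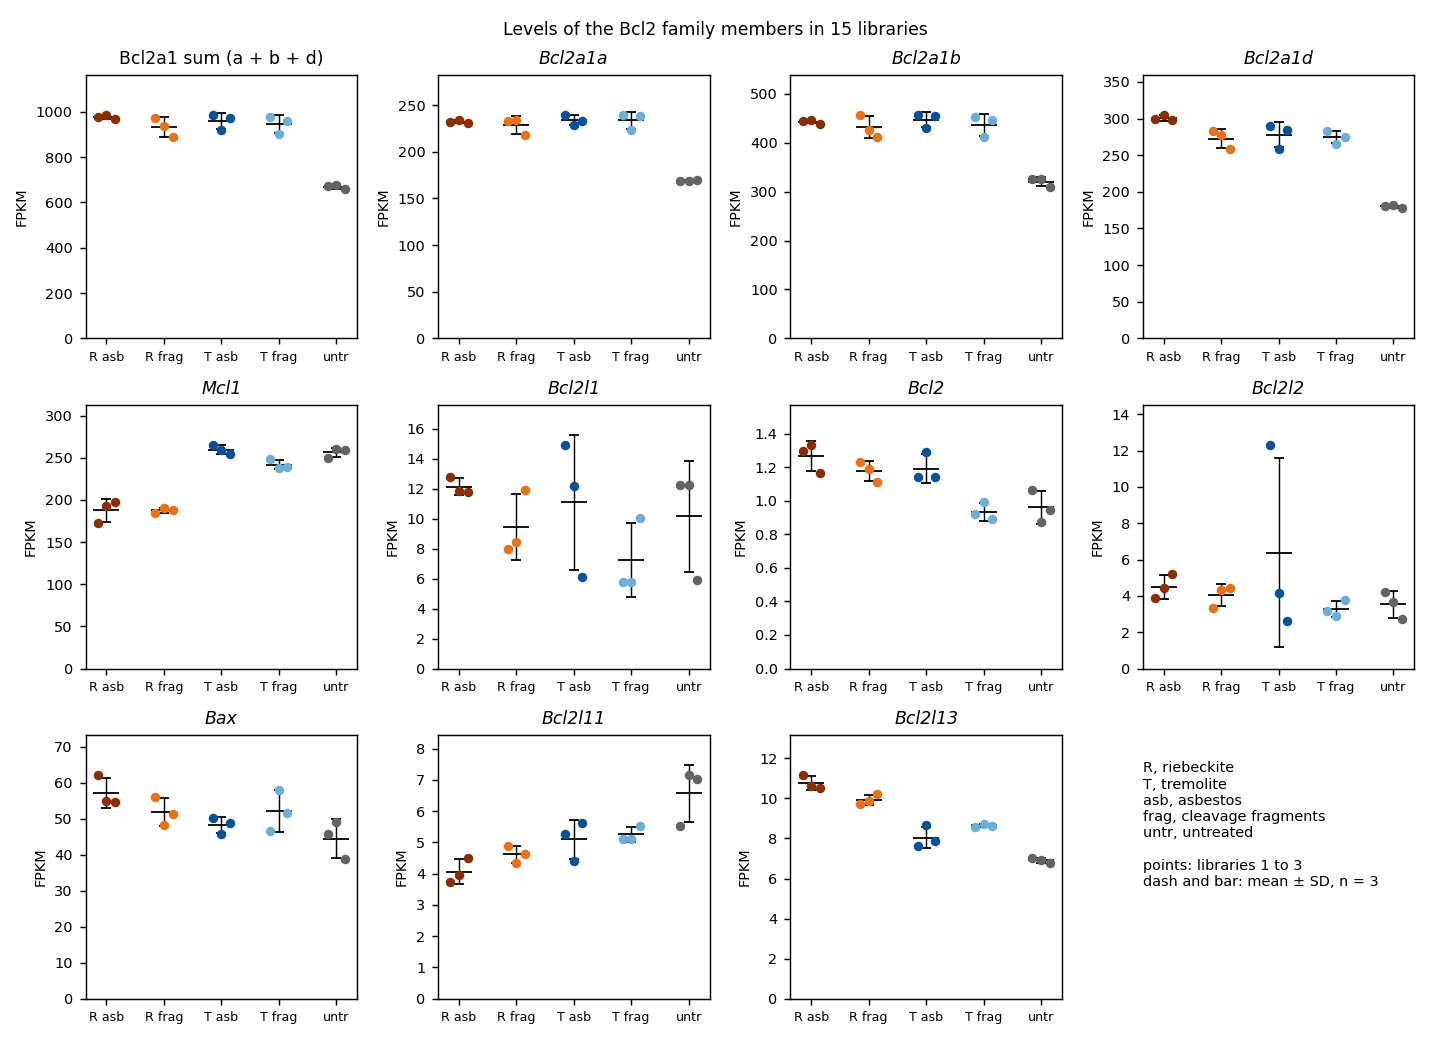
Level in FPKM (vertical axes, from 0) of the Bcl2a1 sum and the 10 members in each of the 15 libraries, with particle groups left of untreated cells; points are libraries, and dashes with bars are means ± SD (n = 3). The Bcl2a1 panels show every particle library above every untreated one, and Mcl1 shows the 6 riebeckite libraries, at 172 to 197 FPKM, below all others.

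**Figure D2:**
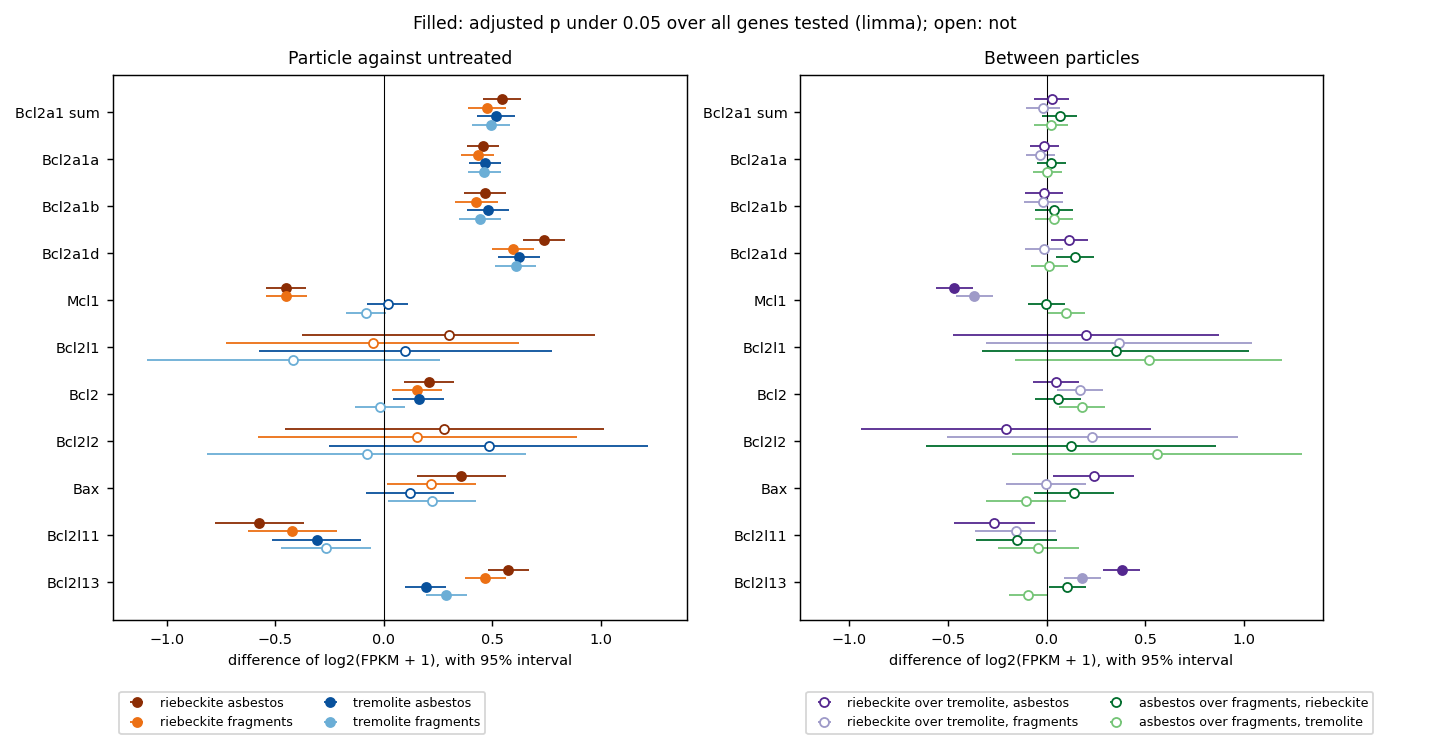
Differences of log2(FPKM + 1) with 95% confidence intervals for each member, particle against untreated cells on the left and between particles on the right; filled points have an adjusted p under 0.05 (limma) and open points do not. The widest intervals are those of Bcl2l1 and Bcl2l2.

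The transcripts of A1 were the most abundant of the family and were higher after every particle. The summed level of Bcl2a1a, Bcl2a1b and Bcl2a1d was 975, 985 and 968 FPKM with riebeckite asbestos, 973, 938 and 888 FPKM with riebeckite fragments, 986, 917 and 974 FPKM with tremolite asbestos, 976, 900.0 and 960 FPKM with tremolite fragments, and 674, 677 and 658 FPKM in untreated cells. The lowest exposed library stood well above the highest untreated one, and the 4 exposed groups overlapped each other. In a bulk sample, fewer cells of a type and less RNA per cell cannot be told apart. The rise on the log2(FPKM + 1) scale was 0.54 with riebeckite asbestos (1.46-fold, adjusted p = 1.89e-07), 0.48 with riebeckite fragments (1.39-fold, adjusted p = 9.36e-07), 0.52 with tremolite asbestos (1.43-fold, adjusted p = 1.08e-06) and 0.50 with tremolite fragments (1.41-fold, adjusted p = 1.11e-06), each with an SE of 0.040 (limma). Each of the 3 genes ranked at percentile 98.7 or above in mean level. Of the listed markers of other cell types only neutrophil markers were in the table, and their sum moved as well. With tremolite fragments S100a8 averaged 28.1 FPKM and Cxcr2 10.2 FPKM, beside 27.8 and 2.51 FPKM in untreated cells. The summed level of S100a8 and Cxcr2, the 2 of 10 listed neutrophil markers in the table, ranged from 68.3 to 71.4 FPKM with riebeckite asbestos, 68.8 to 72.1 FPKM with riebeckite fragments, 37.0 to 46.1 FPKM with tremolite asbestos, 36.3 to 39.8 FPKM with tremolite fragments and 28.2 to 33.8 FPKM in untreated cells. Their part in the result was not tested, and the other 8 markers, Ly6g, S100a9, Elane, Mpo, Camp, Ngp, Retnlg and Csf3r, were not analysed here.

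Within the sum, Bcl2a1b was the largest component and Bcl2a1d rose the most. Bcl2a1d stood at 299, 305 and 298 FPKM with riebeckite asbestos, 283, 277 and 258 FPKM with riebeckite fragments, 290, 258 and 285 FPKM with tremolite asbestos, 284, 266 and 275 FPKM with tremolite fragments, and 180, 182 and 178 FPKM in untreated cells. Exposed and untreated libraries did not overlap, and the rises were 0.74, 0.60, 0.62 and 0.61 on the log2 scale in that order of particles (SE 0.044, adjusted p = 2.47e-08, 2.66e-07, 4.91e-07 and 4.05e-07, limma). Bcl2a1a averaged 232 ± 1.61, 229 ± 9.40, 234 ± 5.45 and 234 ± 9.09 FPKM in the same order of particles, and 169 ± 0.468 FPKM in untreated cells. Its rises lay between 0.43 and 0.47 on the log2 scale. Bcl2a1b averaged 443 ± 3.66, 432 ± 23.1, 447 ± 14.9 and 437 ± 22.6 FPKM with the particles, and 321 ± 9.30 FPKM in untreated cells, and also rose by 0.43 to 0.48. Bcl2a1d made up 30.8% ± 0.140 of the sum with riebeckite asbestos, 29.2% ± 0.290 with riebeckite fragments, 28.9% ± 0.691 with tremolite asbestos, 29.1% ± 0.446 with tremolite fragments and 26.9% ± 0.206 in untreated cells (n = 3 each). Every exposed library held a larger share of Bcl2a1d than any untreated one. Bcl2a1d has a base of its own at only 1 coding position, beside 6 for Bcl2a1a and 5 for Bcl2a1b. Its share and its larger rise therefore rest on an uncertain division of reads, which the SE and p-values do not measure. Bcl2a1b shares the strand and part of its span with the predicted gene Gm29094, at 12.3 ± 2.84 FPKM with riebeckite asbestos and 7.67 ± 2.58 FPKM in untreated cells, a small level beside its own.

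Mcl1 set the minerals apart. Its gene lies at 95658788 to 95663176 on chromosome 3 (plus strand, GRCm38). The level was 172, 193 and 197 FPKM with riebeckite asbestos, 184, 190.5 and 188 FPKM with riebeckite fragments, 265, 259 and 254 FPKM with tremolite asbestos, 249, 238 and 239 FPKM with tremolite fragments, and 249.9, 260.0 and 259 FPKM in untreated cells. All 6 riebeckite libraries were lower than all 9 others, while tremolite asbestos overlapped the untreated libraries and tremolite fragments lay just below them. On the log2 scale Mcl1 fell by 0.45 with riebeckite asbestos and by 0.45 with riebeckite fragments (SE 0.043, adjusted p = 2.22e-06 and 3.04e-06, limma). With tremolite asbestos the difference was 0.02 (95% interval -0.08 to 0.11, adjusted p = 0.819) and with tremolite fragments -0.08 (-0.18 to 0.01, adjusted p = 0.182), and neither passed. The difference between minerals was itself tested: riebeckite asbestos was lower than tremolite asbestos by a log2 difference of -0.47 (SE 0.043, adjusted p = 7.17e-06), and riebeckite fragments lower than tremolite fragments by -0.37 (SE 0.043, adjusted p = 0.000177). Almost all of the signal came from Mcl1-201, which codes for the full-length anti-apoptotic protein of 331 residues. It averaged 188 ± 13.4 FPKM with riebeckite asbestos, 187 ± 3.03 FPKM with riebeckite fragments, 259 ± 5.57 FPKM with tremolite asbestos, 242 ± 5.63 FPKM with tremolite fragments and 256 ± 5.65 FPKM in untreated cells, and the other transcript in the table, Mcl1-202, reached at most 0.612 FPKM in any library. Mcl1-201 itself was lower with riebeckite asbestos than with tremolite asbestos (-0.47, adjusted p = 7.70e-05) and with riebeckite fragments than with tremolite fragments (-0.37, adjusted p = 0.00139), comparisons in which 5.25% and 1.56% of all transcripts passed. The summed neutrophil markers given above also differed between the minerals, and their part in the Mcl1 result was not tested.

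The make-up of the anti-apoptotic transcripts differed between the groups. The 7 anti-apoptotic members (Bcl2a1a, Bcl2a1b, Bcl2a1d, Mcl1, Bcl2l1, Bcl2 and Bcl2l2) summed to 1182 ± 15.4 FPKM with riebeckite asbestos, 1135 ± 39.1 FPKM with riebeckite fragments, 1238 ± 42.8 FPKM with tremolite asbestos, 1199 ± 45.0 FPKM with tremolite fragments and 941 ± 13.6 FPKM in untreated cells. The Bcl2a1 genes supplied 82.6% ± 0.966, 82.2% ± 0.968, 77.5% ± 1.01 and 78.8% ± 0.391 of that sum with the particles in the same order, and 71.2% ± 0.351 in untreated cells. Mcl1 stood to the Bcl2a1 sum as 0.192 ± 0.0140 with riebeckite asbestos, 0.201 ± 0.0110 with riebeckite fragments, 0.271 ± 0.0110 with tremolite asbestos, 0.256 ± 0.00792 with tremolite fragments and 0.383 ± 0.0118 in untreated cells. These ratios fell into 3 ranges that did not overlap, with riebeckite lowest, tremolite between and untreated cells highest. They are given as descriptions with no test.

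**Figure D3:**
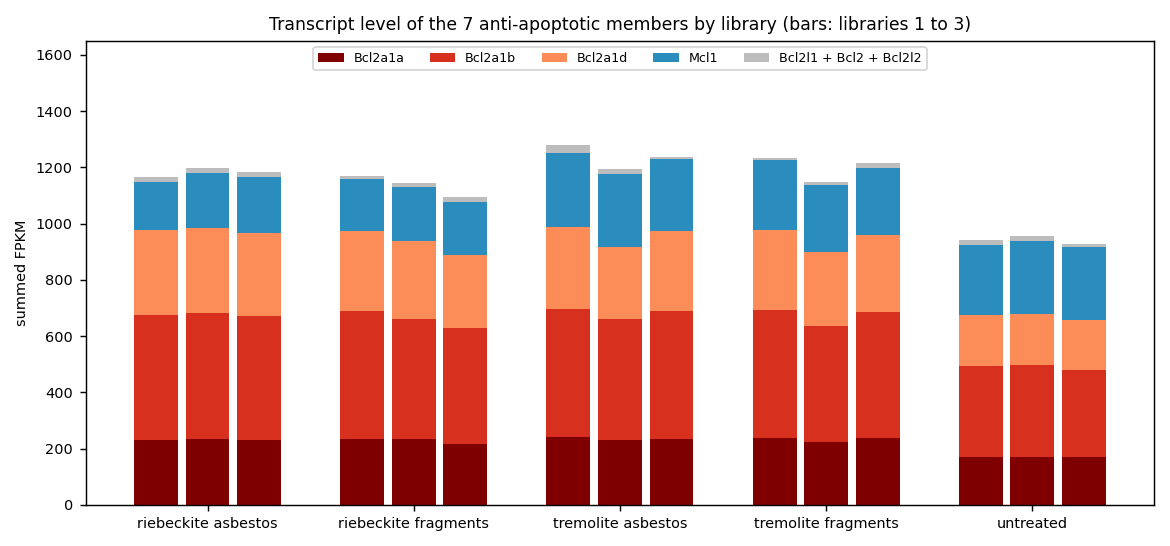
Summed FPKM of the 7 anti-apoptotic members in each library (stacked bars from 0, particle groups left of untreated cells). The Bcl2a1 blocks are taller in all 12 exposed libraries than in the 3 untreated ones, and the Mcl1 block is shorter in the 6 riebeckite libraries.

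The other anti-apoptotic members were minor in transcript level. Bcl2, the founding member, lies at 106538178 to 106714274 on chromosome 1 (minus strand, GRCm38) and had levels near the bottom of the table, at 1.30, 1.33 and 1.16 FPKM with riebeckite asbestos, 1.23, 1.19 and 1.11 FPKM with riebeckite fragments, 1.14, 1.29 and 1.14 FPKM with tremolite asbestos, 0.919, 0.995 and 0.891 FPKM with tremolite fragments, and 1.06, 0.871 and 0.945 FPKM in untreated cells. The first 3 of these particle groups lay above the untreated libraries without overlap, and tremolite fragments lay among them. The rise was 0.21 with riebeckite asbestos (adjusted p = 0.00661), 0.15 with riebeckite fragments (adjusted p = 0.0400) and 0.16 with tremolite asbestos (adjusted p = 0.0464) on the log2(FPKM + 1) scale, which understates changes at this level, with an SE of 0.054 (limma). With tremolite fragments the difference was -0.02 (adjusted p = 0.849). The calls for riebeckite fragments and tremolite asbestos were lost under 7 and 8 alternatives, among them leaving out untreated library 2 (adjusted p = 0.152 and 0.169) or 3, riebeckite fragment library 1 or 2, or any tremolite asbestos library, and that for riebeckite asbestos was lost when transcripts were summed (adjusted p = 0.159). The main transcript, Bcl2-201, codes for 236 residues and averaged 1.54 ± 0.137 FPKM with riebeckite asbestos, 1.40 ± 0.0603 FPKM with riebeckite fragments, 1.32 ± 0.106 FPKM with tremolite asbestos, 1.10 ± 0.0837 FPKM with tremolite fragments and 1.06 ± 0.0971 FPKM in untreated cells.

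Bcl2l1, the gene of Bcl-xL at 152780668 to 152831728 on chromosome 2 (minus strand, GRCm38), varied more within groups than between them. It stood at 12.8, 11.9 and 11.8 FPKM with riebeckite asbestos, 7.97, 8.42 and 11.95 FPKM with riebeckite fragments, 14.9, 12.2 and 6.11 FPKM with tremolite asbestos, 5.77, 5.81 and 10.1 FPKM with tremolite fragments, and 12.3, 12.3 and 5.90 FPKM in untreated cells. All 4 particle groups overlapped the untreated range, and the lowest adjusted p was 0.364, for tremolite fragments (log2 difference -0.42, 95% interval -1.09 to 0.26, limma). Its spread within groups, an SD of 0.429 on the log2 scale, exceeded that of 98.0% of the tested genes. The low values of the gene followed 1 transcript, Bcl2l1-202, one of 2 in the table with the 233-residue coding length of Bcl-xL. That transcript was at 18.4, 17.2 and 17.4 FPKM with riebeckite asbestos, 10.6, 9.98 and 18.1 FPKM with riebeckite fragments, 16.8, 17.2 and 6.35 FPKM with tremolite asbestos, 4.87, 5.74 and 14.4 FPKM with tremolite fragments, and 18.6, 18.1 and 6.21 FPKM in untreated cells. The libraries low in the gene were low in this transcript, in untreated cells as in exposed ones. The highest library of the gene, tremolite asbestos library 1, was not the highest in it. That library stood apart in Bcl2l1-201, at 6.88 FPKM beside at most 2.29 FPKM in any other.

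Bcl2l2, the gene of Bcl-w at 54883377 to 54888234 on chromosome 14 (plus strand, GRCm38), also passed in no comparison. It stood at 3.87, 4.41 and 5.18 FPKM with riebeckite asbestos, 3.34, 4.32 and 4.44 FPKM with riebeckite fragments, 12.3, 4.18 and 2.61 FPKM with tremolite asbestos, 3.16, 2.88 and 3.79 FPKM with tremolite fragments, and 4.20, 3.69 and 2.75 FPKM in untreated cells. A single tremolite asbestos library stood apart, through Bcl2l2-201 at 12.1 FPKM in that library against 1.30 and 1.53 FPKM in the other 2 of its group. With it the log2 difference of tremolite asbestos from untreated cells was 0.48 (95% interval -0.25 to 1.22, adjusted p = 0.346, limma) and without it -0.06. Bcl2l2 overlaps the predicted gene Gm20521 on the same strand, whose level ran from 0 to 7.25 FPKM over the libraries, so reads may have been divided between them.

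Bax, the effector that forms pores in the mitochondrial outer membrane, lies at 45461697 to 45466898 on chromosome 7 (minus strand, GRCm38) and was the most abundant pro-apoptotic member of those followed. It stood at 62.1, 54.8 and 54.6 FPKM with riebeckite asbestos, 56.0, 48.3 and 51.2 FPKM with riebeckite fragments, 50.2, 45.7 and 48.9 FPKM with tremolite asbestos, 46.5, 58.1 and 51.7 FPKM with tremolite fragments, and 45.7, 49.1 and 38.7 FPKM in untreated cells. Riebeckite asbestos alone had no library within the untreated range, and it alone passed, with a log2 rise of 0.36 (SE 0.094, adjusted p = 0.00746, limma). For the other particles the differences were 0.22 (adjusted p = 0.0841), 0.12 (adjusted p = 0.403) and 0.22 (adjusted p = 0.0997), with 95% intervals reaching up to 0.42, 0.32 and 0.43. The rise passed for riebeckite fragments without untreated library 2 (0.29, adjusted p = 0.0405) and for tremolite fragments without tremolite fragment library 1 (0.30, adjusted p = 0.0451). Riebeckite asbestos did not differ past the threshold from riebeckite fragments (log2 difference 0.14, adjusted p = 0.392) or from tremolite asbestos (0.24, adjusted p = 0.0803). The main transcript was Bax-201, the one coding for the 192-residue full-length protein, at 76.6 ± 6.60, 66.1 ± 6.45, 63.7 ± 18.7 and 61.5 ± 17.4 FPKM with the particles in the same order and 61.5 ± 5.50 FPKM in untreated cells.

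Bcl2l11, the gene of the BH3-only protein Bim at 128126038 to 128162547 on chromosome 2 (plus strand, GRCm38), fell with 3 of the 4 particles. It stood at 3.74, 3.96 and 4.50 FPKM with riebeckite asbestos, 4.89, 4.35 and 4.63 FPKM with riebeckite fragments, 5.28, 4.40 and 5.61 FPKM with tremolite asbestos, 5.12, 5.12 and 5.54 FPKM with tremolite fragments, and 5.51, 7.15 and 7.04 FPKM in untreated cells. Both riebeckite groups lay below every untreated library, and each tremolite group had its highest library just above the lowest untreated one. It fell by 0.57 with riebeckite asbestos (adjusted p = 0.000280), by 0.42 with riebeckite fragments (adjusted p = 0.00326) and by 0.31 with tremolite asbestos (adjusted p = 0.0310) on the log2 scale, with an SE of 0.095 (limma). With tremolite fragments the difference was -0.27 and missed the threshold (adjusted p = 0.0534), and it passed without untreated library 1 (-0.37, adjusted p = 0.00829). The call with tremolite asbestos was lost without untreated library 2 (adjusted p = 0.121) or 3 (0.113), or without tremolite asbestos library 1 (0.0517) or 2 (0.122).

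In 2 of the 3 untreated libraries, and in 1 tremolite asbestos library, a splice form that was minor in the others took much of the Bcl2l11 level. Bcl2l11-203, with the 140-residue coding length of the form BimL, was at 0.919, 1.01 and 6.27 FPKM with tremolite asbestos, between 0.631 and 1.12 FPKM in the 9 libraries of the other particles, and at 0.847, 7.46 and 6.91 FPKM in untreated cells. It took 50.6% of the length-weighted transcript level of the gene in the high tremolite asbestos library and 47.3% and 45.1% in the 2 high untreated libraries, against 6.12 to 11.6% in the remaining 12 libraries. In the same 3 high libraries Bcl2l11-201 stood at 0 FPKM, and how reads were divided between the forms was not tested. Bcl2l11-205, with the 196-residue coding length of BimEL, moved less, at 4.67 ± 0.290 FPKM with riebeckite asbestos, 5.70 ± 0.211 FPKM with riebeckite fragments, 5.43 ± 1.07 FPKM with tremolite asbestos, 6.55 ± 0.455 FPKM with tremolite fragments and 6.14 ± 0.871 FPKM in untreated cells. No transcript of Bcl2l11 passed the test over 22038 transcripts with any particle against untreated cells, where 13%, 10.3%, 5.02% and 6.29% of all transcripts passed (limma). When the 3 libraries high in Bcl2l11-203 were left out, an alternative chosen after seeing the data that leaves 1 untreated library assumed to vary like the other groups, the fall with riebeckite asbestos was 0.36 (adjusted p = 0.0317). The differences with riebeckite fragments (-0.21, adjusted p = 0.208), tremolite asbestos (-0.16, adjusted p = 0.467) and tremolite fragments (-0.06, adjusted p = 0.798) then did not pass.

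Bcl2l11 is a known target of FoxO transcription factors, and its promoter is shown for that reason. The window of the start site at chr2:128125788-128126087 (plus strand, RefSeq, GRCm38.p6) held 1 match to the FoxO motif GTAAACA, in capitals, a motif found in 3.65% of all promoters.
Bcl2l11: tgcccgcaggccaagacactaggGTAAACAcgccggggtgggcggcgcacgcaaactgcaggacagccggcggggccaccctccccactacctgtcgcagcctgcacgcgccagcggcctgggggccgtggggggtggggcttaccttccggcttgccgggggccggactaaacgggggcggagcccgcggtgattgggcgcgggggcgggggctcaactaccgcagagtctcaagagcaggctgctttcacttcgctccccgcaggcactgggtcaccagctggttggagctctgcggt
The second start site of Bcl2l11 in the table of promoters held no match. Among the other members' promoters, Bax held 2 matches to the E-box CACGTG (7.15% of all promoters have 1 or more), 1 of the 3 start sites of Bcl2l1 held the NF-kB consensus (8.46%), and TTCNNNGAA, a STAT motif, was found in none (8.3%).

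**Figure D4:**
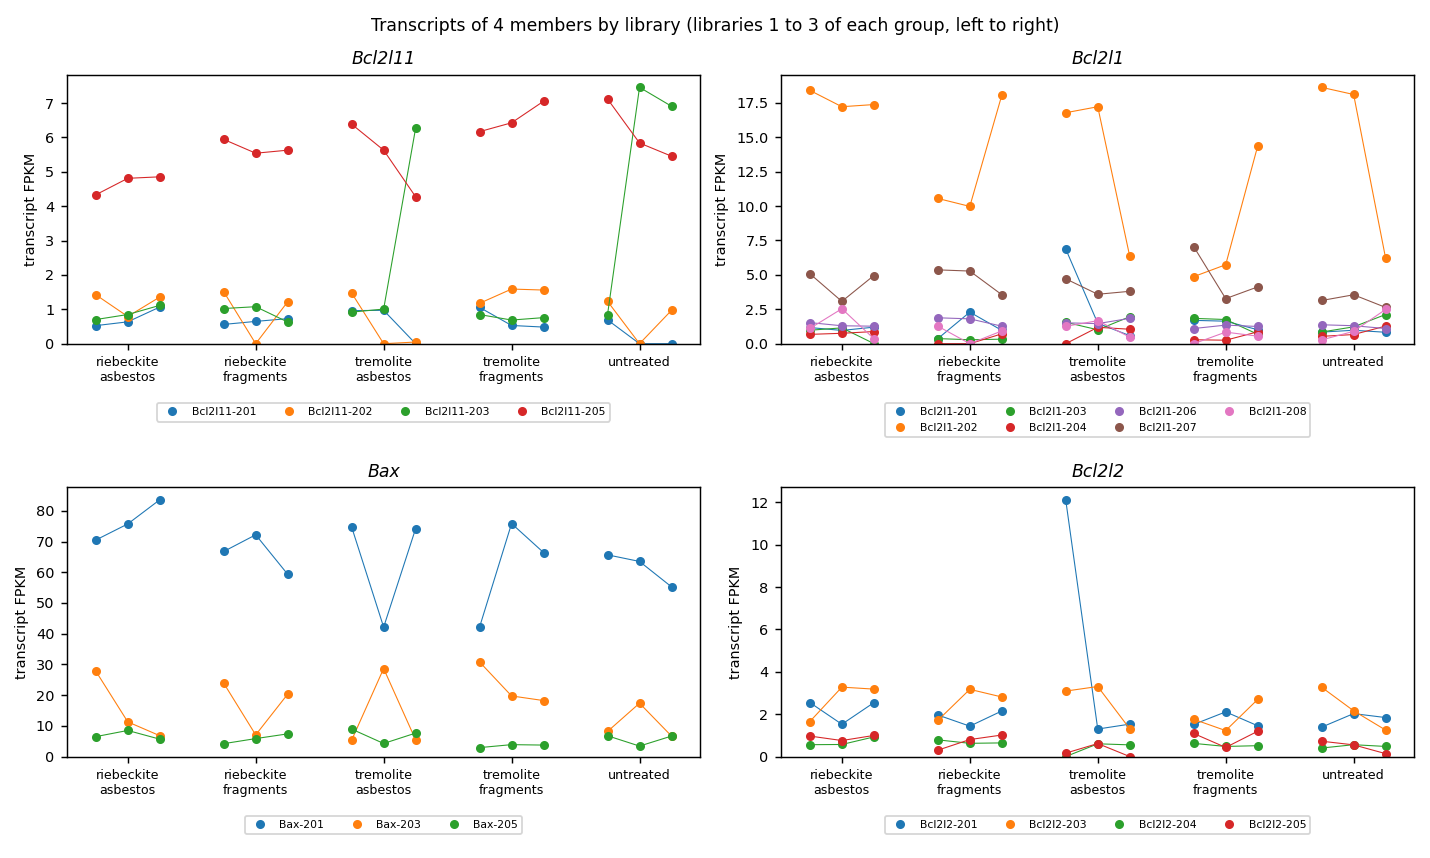
Transcript levels in FPKM (vertical axes, from 0) for Bcl2l11, Bcl2l1, Bax and Bcl2l2 in each library, with thin lines joining the 3 libraries of a group for reading only. Bcl2l11-203 is at 6.27 to 7.46 FPKM in 3 libraries and at 0.631 to 1.12 FPKM in the other 12, and Bcl2l1-202 swings between 4.87 and 18.6 FPKM.

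Bcl2l13, the mitophagy receptor at 120836212 to 120892842 on chromosome 6 (plus strand, GRCm38), rose with every particle and more with riebeckite. Its end overlaps Bid, on the other strand. It stood at 11.2, 10.6 and 10.5 FPKM with riebeckite asbestos, 9.72, 9.89 and 10.2 FPKM with riebeckite fragments, 7.62, 8.65 and 7.85 FPKM with tremolite asbestos, 8.57, 8.72 and 8.64 FPKM with tremolite fragments, and 7.004, 6.93 and 6.77 FPKM in untreated cells. No exposed library overlapped the untreated ones. In order of level the groups ran riebeckite asbestos, riebeckite fragments, tremolite fragments, tremolite asbestos, untreated cells, and neither the first pair of neighbours (adjusted p = 0.153) nor the tremolite pair (adjusted p = 0.457) differed past the threshold. The log2 rise was 0.57 with riebeckite asbestos (adjusted p = 2.41e-07), 0.47 with riebeckite fragments (adjusted p = 2.36e-06), 0.19 with tremolite asbestos (adjusted p = 0.00596) and 0.29 with tremolite fragments (adjusted p = 0.000276), with an SE of 0.044 (limma). It was higher with riebeckite asbestos than with tremolite asbestos by 0.38 (adjusted p = 4.34e-05) and with riebeckite fragments than with tremolite fragments by 0.18 (adjusted p = 0.0197). The second of these calls was lost without riebeckite fragment library 3 (adjusted p = 0.0615) or without any of the 3 tremolite fragment libraries (0.0510 to 0.0608), with nuclear rescaling (0.14, adjusted p = 0.0935) and with summed transcripts (0.12, adjusted p = 0.702). With summed transcripts the first was also lost (0.46, adjusted p = 0.0562). Bcl2l13-201, which codes for 434 residues, followed the gene at 13.6 ± 0.343, 12.5 ± 0.232, 10.2 ± 0.919 and 10.8 ± 0.159 FPKM with the particles in the same order and 8.81 ± 0.0686 FPKM in untreated cells.

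Asbestos and cleavage fragments of the same mineral were compared at doses equal in surface area. No member passed in riebeckite asbestos against riebeckite fragments, where 10.6% of all genes passed, 6.71% higher and 3.85% lower. The libraries did not overlap for 2 members, beside 29% of all genes, and 2 members, Bcl2a1d and Bcl2l13, had an unadjusted p under 0.05 (limma). Their log2 differences were 0.14 (95% interval 0.05 to 0.24, adjusted p = 0.0597) and 0.11 (0.01 to 0.20, adjusted p = 0.153). No member passed in tremolite asbestos against tremolite fragments, where 0.942% of all genes passed, 0.386% higher and 0.556% lower. The libraries did not overlap for 2 members, beside 17% of all genes, and 3 had an unadjusted p under 0.05, namely Mcl1 (0.10, adjusted p = 0.404), Bcl2 (0.18, adjusted p = 0.188) and Bcl2l13 (-0.09, adjusted p = 0.457). For the Bcl2a1 sum the interval was -0.02 to 0.15 in riebeckite and -0.07 to 0.11 in tremolite, which bounds any difference of habit well under the rise over untreated cells. For Bcl2l1 it was -0.33 to 1.03 and -0.16 to 1.19, so that a large difference could not be seen. The effect of habit was not shown to differ between the minerals for any member either, where 3.93% of all genes passed, 2.65% higher and 1.28% lower, and 1 member, Bcl2l13, had an unadjusted p under 0.05 (0.20, adjusted p = 0.101). It passed without tremolite asbestos library 2 (0.25, adjusted p = 0.0268). The share of all genes with an unadjusted p under 0.05 is not given here. The counts of members at that threshold thus have no background beside them and are descriptions only.

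Riebeckite and tremolite of the same habit were set side by side in the same way. In riebeckite asbestos against tremolite asbestos 2 of 10 members passed, Mcl1 lower and Bcl2l13 higher, beside 26.5% of all genes, 15.5% higher and 11% lower. The libraries did not overlap for 4 members, beside 40.6% of all genes. Bcl2l11 (-0.26, adjusted p = 0.0566) passed here as well under 6 alternatives, among them leaving out riebeckite asbestos library 3 (adjusted p = 0.0410) or tremolite asbestos library 2 (0.0218), and Bax passed with only the groups compared (0.24, adjusted p = 0.0412). In riebeckite fragments against tremolite fragments the same 2 passed in the same directions, beside 11.3% of all genes, 5.31% higher and 6.01% lower. The libraries again did not overlap for 4 members, beside 32% of all genes. Here 564 genes were higher and 638 lower as reported, 659 and 502 with median-ratio scaling, and 377 and 994 with nuclear rescaling. For riebeckite asbestos against fragments the counts were 712 and 409 as reported, 483 and 575 with median-ratio scaling, and 491 and 575 with quantile normalization, and for the difference of habit effects 281 and 136 as reported, 197 and 200 with median-ratio scaling, and 206 and 171 with quantile normalization. The Bcl2a1 sum differed between the minerals by 0.03 for asbestos (95% interval -0.06 to 0.11, adjusted p = 0.693) and by -0.02 for fragments (-0.11 to 0.07, adjusted p = 0.805). Under quantile normalization the sum passed in riebeckite asbestos against riebeckite fragments (0.10, adjusted p = 0.0118) and in riebeckite fragments against tremolite fragments (-0.10, adjusted p = 0.0167).

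The rest of the family was followed through 12 tested genes of 16 listed. With riebeckite asbestos 3 were higher and 0 lower, with riebeckite fragments 2 higher and 1 lower, with tremolite asbestos 2 higher and 0 lower, and with tremolite fragments 3 higher and 0 lower. Over all genes 21%, 15.3%, 10% and 12.5% were higher and 24.3%, 23.1%, 13.9% and 15% lower with the particles in that order. Pmaip1, which codes for Noxa, a BH3-only protein that binds Mcl1 and A1, rose with all 4. It averaged 17.0 ± 0.571, 16.5 ± 0.390, 15.7 ± 0.791 and 17.9 ± 0.756 FPKM with the particles in the same order and 12.3 ± 1.25 FPKM in untreated cells (adjusted p from 3.27e-05 to 0.00164, limma). Bok, a Bax-like effector, also rose with all 4, at 2.98 ± 0.595, 2.97 ± 0.0696, 2.43 ± 0.113 and 2.97 ± 0.560 FPKM with the particles and 1.05 ± 0.485 FPKM in untreated cells (adjusted p from 0.000231 to 0.00299). Bbc3, the gene of Puma, rose with riebeckite asbestos (5.12 ± 0.339 FPKM with it, 3.78 ± 0.190 FPKM in untreated cells, adjusted p = 0.00251), and Bmf, another BH3-only gene, with tremolite fragments (6.08 ± 0.253 FPKM with them, 4.33 ± 0.271 FPKM in untreated cells, adjusted p = 0.000324). The second effector, Bak1, averaged 42.7 ± 2.21, 40.4 ± 0.812, 42.0 ± 0.623 and 40.5 ± 1.83 FPKM with the particles and 40.4 ± 1.68 FPKM in untreated cells, and did not pass.

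Of 10 inhibitors of apoptosis tested, 4 were higher and 3 lower with riebeckite asbestos, 3 higher and 1 lower with riebeckite fragments, and 5 higher and 0 lower with each form of tremolite. With riebeckite asbestos 21% of all genes were higher and 24.3% lower, and with riebeckite fragments 15.3% and 23.1%, while 10% and 12.5% were higher with tremolite asbestos and fragments. The list includes the Naip genes, and Naip1, Naip2 and Naip5 were among those higher with tremolite fragments. Its counts are therefore not counts of survival genes alone. Naip2, an inflammasome sensor with inhibitor-of-apoptosis repeats, rose with all 4, at 58.0 ± 1.11, 54.7 ± 1.14, 50.6 ± 0.402 and 55.9 ± 1.20 FPKM with the particles and 41.0 ± 0.683 FPKM in untreated cells (adjusted p of at most 4.71e-06, limma). Cflar, which codes for the caspase-8 inhibitor c-FLIP, rose by 0.43 with riebeckite asbestos, 0.30 with tremolite asbestos and 0.28 with tremolite fragments, and was higher with riebeckite asbestos than with riebeckite fragments by 0.33 (adjusted p = 0.00661). Birc3, the gene of cIAP2, rose by 0.46 with riebeckite asbestos, 0.41 with tremolite asbestos and 0.36 with tremolite fragments. Birc2, the gene of cIAP1, was lower with riebeckite asbestos (-0.23, adjusted p = 0.0211) and riebeckite fragments (-0.22, adjusted p = 0.0268), and Birc5 (-0.26, adjusted p = 0.00851), the gene of survivin, and Naip6 (-0.18, adjusted p = 0.00162) were lower with riebeckite asbestos.

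Of 14 genes of the apoptosome and the caspases, 3 were higher and 2 lower with riebeckite asbestos, 2 and 2 with riebeckite fragments, 2 and 2 with tremolite asbestos, and 1 and 3 with tremolite fragments. With riebeckite asbestos 21% of all genes were higher and 24.3% lower, with riebeckite fragments 15.3% and 23.1%, with tremolite asbestos 10% and 13.9%, and with tremolite fragments 12.5% and 15%. Casp6, an executioner caspase, averaged 1.66 ± 0.189, 1.53 ± 0.111, 1.67 ± 0.185 and 1.76 ± 0.0898 FPKM with the particles in the same order and 2.37 ± 0.151 FPKM in untreated cells. It was lower with all 4 particles (adjusted p of at most 0.00699, limma). Of 8 tested genes of death receptors and necroptosis, 1 was higher and 1 lower with each form of riebeckite, 3 higher and 0 lower with tremolite asbestos, and 2 higher and 1 lower with tremolite fragments. Fas, the receptor of Fas ligand, averaged 13.0 ± 0.459 and 12.4 ± 0.335 FPKM with riebeckite asbestos and fragments, 17.1 ± 0.233 and 15.2 ± 0.787 FPKM with tremolite asbestos and fragments, and 15.05 ± 0.627 FPKM in untreated cells. It was lower with riebeckite than with tremolite in both habits (-0.37, adjusted p = 4.66e-05 for asbestos, and -0.27, adjusted p = 0.00157 for fragments), as Mcl1 was. Ripk3, of the same list, was higher with all 4 particles, by 0.20, 0.27, 0.26 and 0.30 in the same order (adjusted p of at most 0.0419, limma). Tnfrsf1b was higher with tremolite asbestos (0.25, adjusted p = 0.000323) and tremolite fragments (0.23, adjusted p = 0.000536).

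**Figure D5:**
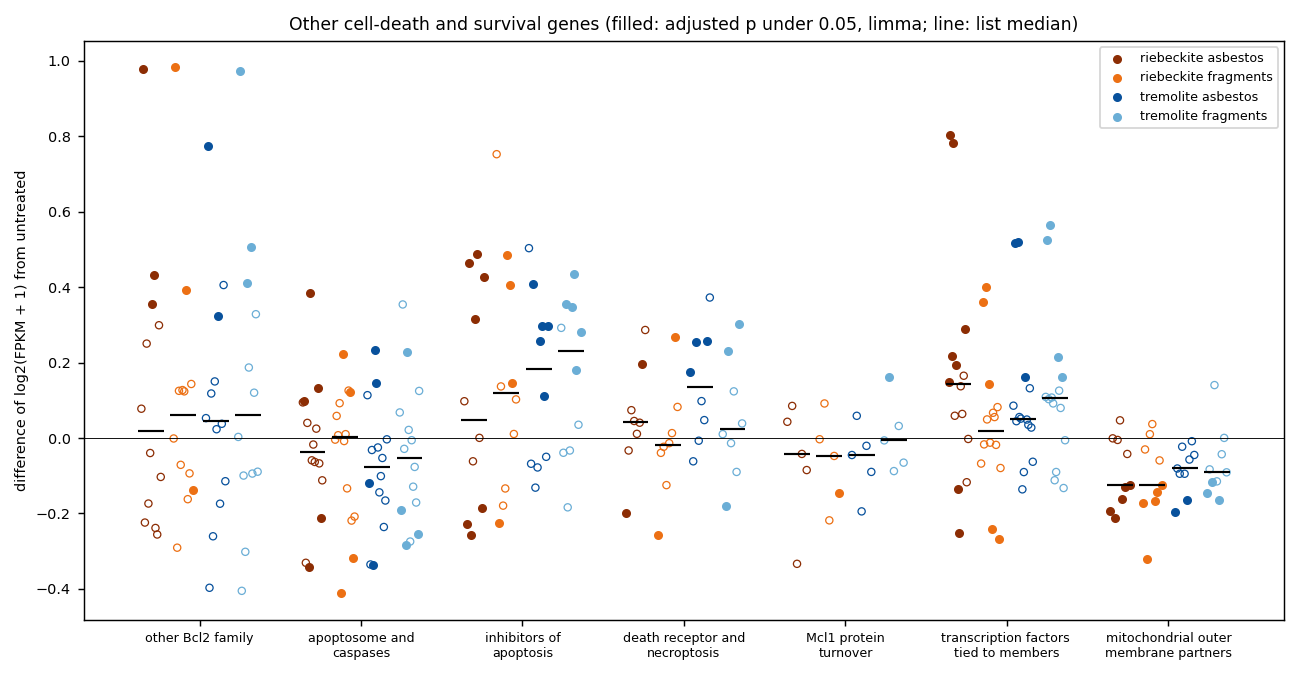
Differences of log2(FPKM + 1) from untreated cells for the tested genes of 7 lists, 4 particle groups per list; each point is a gene, filled where the adjusted p was under 0.05 (limma), and lines are list medians. Points on both sides of 0 are seen in most lists, and the mitochondrial outer membrane genes have filled points below 0 only.

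Of 14 transcription factors tied to the members, 6 were higher and 2 lower with riebeckite asbestos, 3 and 2 with riebeckite fragments, 3 and 0 with tremolite asbestos, and 4 and 0 with tremolite fragments. Over all genes the shares higher and lower were 21% and 24.3%, 15.3% and 23.1%, 10% and 13.9%, and 12.5% and 15% in that order. Nfkb2, a subunit of the non-canonical NF-kB pathway, rose with all 4, at 27.6 ± 1.18, 20.1 ± 0.836, 22.5 ± 0.814 and 22.6 ± 0.940 FPKM with the particles and 15.4 ± 0.508 FPKM in untreated cells. It was higher with riebeckite asbestos than with riebeckite fragments by 0.44 (adjusted p = 0.000143), and that difference of habit was larger in riebeckite than in tremolite by 0.45 (adjusted p = 0.00330). For the Bcl2a1 sum the same quantity was 0.04 (adjusted p = 0.726). Any part of Nfkb2 or the other listed factors in the Bcl2a1 levels was not tested. Of 5 tested genes of Mcl1 protein turnover, 0 passed with riebeckite asbestos (2 had an unadjusted p under 0.05, limma) or with tremolite asbestos (1 had). The share of all genes at that unadjusted threshold is not given here. Ube2n, a ubiquitin-conjugating enzyme, was lower with riebeckite fragments (-0.15, adjusted p = 0.00781) and Usp9x, a deubiquitinase of Mcl1, higher with tremolite fragments (0.16, adjusted p = 0.00513). Of 9 genes of the mitochondrial outer membrane and its dynamics, 0 were higher with any particle, and 5, 5, 2 and 3 were lower with the particles in the same order. Vdac1, the outer membrane channel, averaged 54.5 ± 1.38, 55.4 ± 2.25, 54.4 ± 1.84 and 56.3 ± 1.51 FPKM with the particles and 62.5 ± 1.50 FPKM in untreated cells (adjusted p of at most 0.00999). The median log2 differences of that list were -0.12, -0.12, -0.08 and -0.09, beside -0.02, -0.04, -0.03 and -0.02 over all tested genes.

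Genes whose centred log2 levels lay nearest to a member over the 15 libraries were sought among those averaging at least 5 FPKM. For the Bcl2a1 sum these were Id2, Nampt and Frk, with root mean square differences of 0.064, 0.070 and 0.073 beside the sum's own spread of 0.208. For Mcl1 they were Pdk1, Cdc42ep3 and Atp7a (0.074, 0.078 and 0.078 beside 0.217), and for Bcl2l13 they included Fads1 and Cyb5r3 (0.041 and 0.044 beside 0.206). For Bcl2l11 the nearest were Atp13a3, Sema3e and Fam105a, at 0.091, 0.092 and 0.097 beside 0.215. All libraries come from the same cell line, and these are descriptions of pattern only.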

How the data were processed

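RNA was measured by sequencing in 15 libraries of MPI macrophages, in 5 groups of 3. Per the labels' protocols, libraries were made from poly(A) RNA with dUTP strand marking. The submitters' processing notes name cutadapt, HISAT2, StringTie and the build GRCm38, without versions. The deposited gene and transcript tables hold FPKM as the authors made them, and a gene's FPKM followed the length-weighted FPKM of its transcripts. FPKM carry no read depth.

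The test was limma (version 3.58.1, R 4.3.3) with a mean-variance trend, 1 model over the 5 groups and log2(FPKM + 1) as the response. It took genes and transcripts that reached 0.5 FPKM in 3 or more libraries. P-values were adjusted by Benjamini-Hochberg over all genes or transcripts of a comparison, at a threshold of 0.05. The pseudocount of 1 understates changes of low genes. The Bcl2a1 genes were also summed and refitted. Transcript shares were weighted by length. The effect of habit by mineral was riebeckite asbestos minus fragments, less tremolite asbestos minus fragments. Fits were tested on simulated data. All members were described, and from each wider list up to 4 genes with the smallest p in a comparison could be named. Bak1, Birc2, Birc5 and Naip6 with riebeckite asbestos, Cflar with tremolite fragments and the differences of list genes between particles were named after their values were seen.

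The members and lists were chosen with earlier results of these data known. Alternatives were a pseudocount of 0.1, a mean of at least 5 FPKM, no filter, other scalings, summed transcripts, a fit of only the groups compared, a replicate block and leaving out each library. The labels do not say whether replicate numbers pair the libraries, and the main fit did not use them. Sequences were read with Python 3.11.15 and Biopython 1.88, and figures drawn with matplotlib 3.10.9. Protein sequences were not analysed here, and some genes of the wider lists and of the likeness search are not reported here.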

Additional observations from a re-analysis of the deposited data

How the results depend on the processing

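Under the alternatives no called difference of a member reversed, while some that did not pass changed sign, such as Bcl2l2 with tremolite asbestos and Bcl2l1 with riebeckite asbestos. The rises of the Bcl2a1 genes and their sum with all particles, the fall of Mcl1 with both forms of riebeckite, and the rises of Bcl2l13 with riebeckite asbestos, riebeckite fragments and tremolite fragments and of Bax with riebeckite asbestos passed under every one that was run. The members called with tremolite asbestos against untreated cells numbered 3 both with summed transcripts and in the fit of only the groups compared, and 4 to 6 with a library left out. With a library left out 1997 to 2301 of all genes were called in that comparison, and 1790 to 2649 under the other alternatives, beside 2540 as reported. In riebeckite asbestos against riebeckite fragments 1 member, Bcl2a1d, was called with a mean of at least 5 FPKM, with quantile normalization and with nuclear rescaling. Of all genes, 1066 were called there with quantile normalization and 906 with nuclear rescaling, and the count for the minimum mean is not given. There the genes called numbered 657 with summed transcripts, 278 with only the groups compared and 644 to 878 with a library left out, beside 1121 as reported. In tremolite asbestos against tremolite fragments they numbered 43, 29 and 31 to 92 in the same settings, beside 100 as reported. In riebeckite fragments against tremolite fragments they numbered 730, 671 and 717 to 970, beside 1202 as reported. There 1 member was called with nuclear rescaling, beside 1371 genes, and 1 with summed transcripts, Bcl2l13 being the one lost. With a library left out 1 to 2 members were called. In riebeckite asbestos against tremolite asbestos 1 member was called with summed transcripts, without Bcl2l13. All genes called there numbered 1959 to 2931 under the alternatives other than leaving out a library, beside 2816 as reported. For the difference of habit between minerals 198 genes were called with summed transcripts and 210 to 425 with a library left out, beside 417, and the members called numbered 0 to 1, the 1 being Bcl2l13 without the second tremolite asbestos library. The cause of these changes was not tested, apart from the fewer libraries and the smaller residual degrees of freedom that some settings carry by construction.

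Bcl2l11 with tremolite asbestos also lost its call with median-ratio scaling (adjusted p = 0.0566), summed transcripts (0.0860) and only the groups compared (0.104) in limma, and Bcl2l13 with tremolite asbestos with summed transcripts (0.300) and only the groups compared (0.0540). Leaving out the 3 libraries high in Bcl2l11-203 was chosen after seeing the data. Bcl2 and Bcl2l2 average under 5 FPKM and have no value at that minimum.

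A replicate block was fitted on the number in the titles, which the labels do not tie to a shared culture or day. It gave 8, 7, 6 and 5 members called with the particles against untreated cells, beside 4893, 4147, 2649 and 3006 of 10616 genes. In the comparisons between particles it gave 0, 0, 3 and 2 members, beside 1191, 99, 2931 and 1315 genes. For the difference of habit it gave 0, beside 416 genes. With tremolite fragments the added call was Bcl2l11 (-0.27, adjusted p = 0.0413). Same-numbered libraries correlated at -0.06 to 0.17 in their deviations from the group means, and 4 of 30 pairs exceeded 0.1. Differently numbered libraries of different groups correlated at -0.13 to 0.11, and 1 of 60 pairs exceeded 0.1. The medians were 0.02 and -0.02, and whether the numbers mark shared cultures was not settled. FPKM carry no depth, so counting error could not be weighed, and low members such as Bcl2 are the least certain.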
